A study of Mus musculus with 4 samples.

Results

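The endoplasmic reticulum (ER) is where proteins bound for the membrane or for secretion enter, fold and are checked, and 30 of its chaperone, translocon and degradation genes were followed here in the mouse ventricle. They were listed by name for their roles in the ER, with earlier results of these data known, and all 30 were found, each on 1 row, among the 23847 rows (23352 gene symbols) of the deposited table. Ventricles came from male C57BL/6 mice at postnatal day 21. In 2 samples (Cdk8Tg) the kinase gene Cdk8 was overexpressed specifically in the heart, and 2 samples were wild type (WT). Polyadenylated RNA was sequenced from stranded libraries. Values are FPKM, the number of sequenced fragments scaled to transcript length and sequencing depth. What promoter drives the transgene, and how many lines carry it, is not stated in the sources used here, nor whether each library came from a separate animal.

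Proteins that misfold in the ER are retained by resident chaperones, and those that cannot be rescued are drawn back into the cytosol and degraded, a route known as ER-associated degradation. When misfolded protein builds up, the sensors ATF6, IRE1 (encoded by Ern1) and PERK (encoded by Eif2ak3) start the unfolded protein response, which raises transcription of the chaperones and of the degradation machinery. In heart muscle the same compartment is continuous with the sarcoplasmic reticulum, the calcium store for contraction, and the response is known from pressure overload and ischaemia.

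The transgene was checked first. Cdk8 read 7309 and 8122 FPKM in Cdk8Tg, against 7.892 and 9.856 FPKM in WT. Steps between low FPKM values gave an estimated depth of 12.2 and 11.7 M (mega) fragments in Cdk8Tg, against 13.8 and 13.8 M in WT, if each library was scaled by its own fragment total. Ventricular muscle markers were present at a summed 40773 and 38591 FPKM in Cdk8Tg, against 61257 and 59002 FPKM in WT. Of these 9 genes 7 were called lower in the limma fit described below, against 7.98% of all rows. Of 8 fibroblast markers, 6 were called higher in that fit, against 16.9% of all rows. Fibroblast sums were 1115 and 1430 FPKM in Cdk8Tg and 904 and 839 FPKM in WT. In whole ventricle, fewer cells of a type and less RNA per cell cannot be told apart.

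Few of the ER genes passed the test adjusted over all genes, and most had groups that did not overlap. Herpud1, a membrane protein of the degradation complex, was lower by far more than any other. Hspa5, the main ER chaperone, was lower to a smaller degree, and Os9, a lectin of the degradation route, was higher. Each gene was read from a limma fit over all 11888 rows with a mean of at least 1 FPKM, and an adjusted p (Benjamini-Hochberg over all these rows) under 0.05 was called. Of the 30 genes 3 were called, which is 10%, against 24.9% of all tested rows. Called higher was 1 of 30, against 16.9% of all rows, and called lower were 2 of 30, against 7.98% of all rows. The libraries of the groups did not overlap for 21 of the 30 genes, or 70.0%, against 70.3% of all rows (11 of them higher and 10 lower). A share at or near that of all genes is no result about the set, and a gene that misses the threshold with 2 libraries a group is not shown to be alike in both genotypes. Herpud1 stood at -1.31 on the log2(FPKM + 1) scale, and the other 29 genes lay between -0.64 and 0.42. Their median over all 30 was 0.03, against 0.13 for all tested rows.

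These values depend on how the libraries are scaled against each other. Median-of-ratios scaling, which divides out the shift shared by most genes, brought the median of all rows to 0.00 and that of the 30 genes to -0.11. It called 4 of the 30 lower (Herpud1, Hspa5, Calr and Canx), against 11.7% of all rows, and 0 higher by limma, against 7.96% of all rows. Called in either direction on that scale were 19.6% of all rows. At an unadjusted p under 0.05, 11 of the 30 were lower and 1 higher on that scale, against 19.6% and 16.7% of all rows. As deposited, 5 were lower and 5 higher at that level, against 12.3% and 29.4% of all rows. Scaling to an equal FPKM sum moved the set the other way, with 10 of the 30 called higher, against 41.2% of all rows, and 1 lower, Herpud1, against 5.49% of all rows (limma). Hspa5 was then at -0.45 and not called (limma, Benjamini-Hochberg adjusted p = 0.071). Herpud1 was called lower on all 3 of these scales.

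By level, the set lay above most of the transcriptome, with a median of 20.6 FPKM over the 4 libraries, against 8.73 FPKM for all tested rows. At least 100 FPKM was reached by 4 of the 30 genes in either Cdk8Tg library (Hspa5, Hsp90b1, Calr and P4hb) and by 5 in either WT library, Herpud1 being the fifth. The lowest value was 2.45 FPKM, for Ern1 in WT replicate 1.

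**Figure D1:**
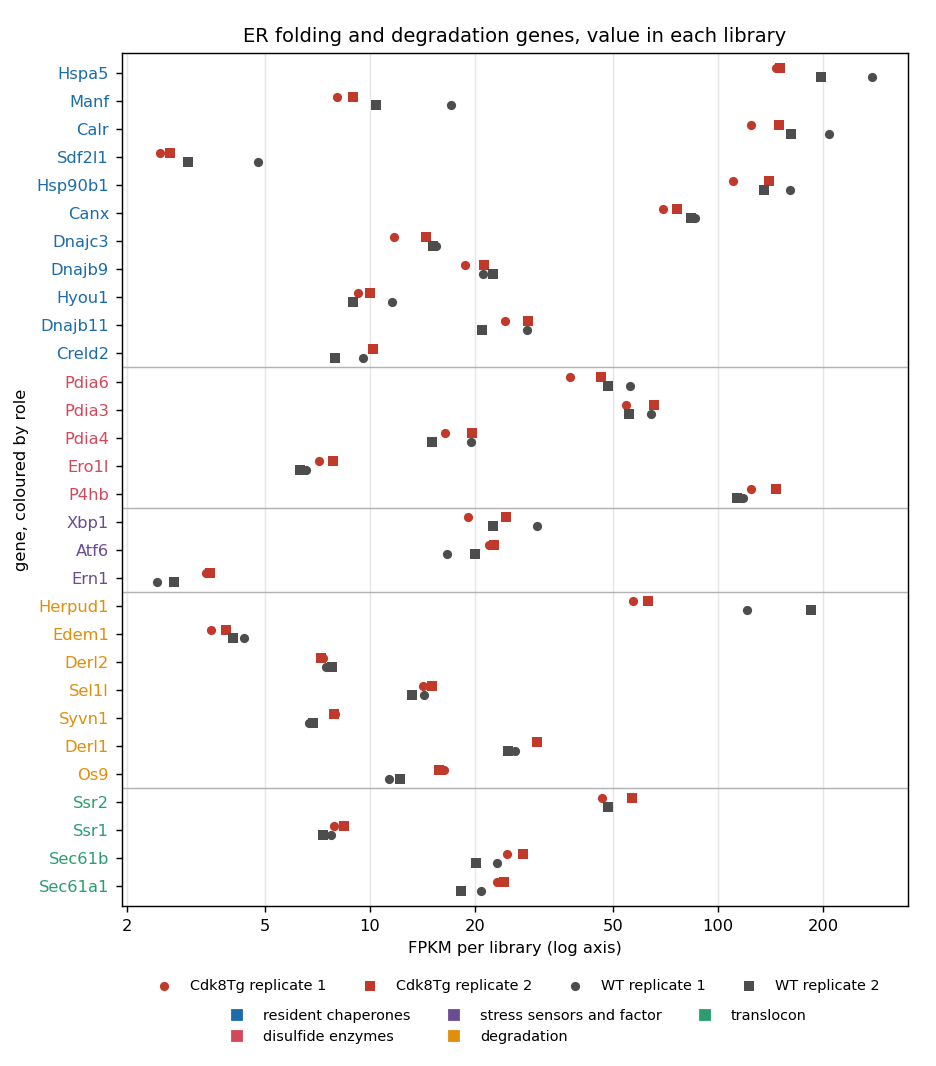
FPKM of the 30 genes in each of the 4 libraries on a log axis, with Cdk8Tg libraries in red above WT libraries in grey for each gene, and names coloured by role. The 2 red points of Herpud1, at 57.0 and 62.9 FPKM, lie well left of the grey points at 121 and 185 FPKM, while for most other genes the groups lie close together or overlap.

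Of the 11 resident chaperones 9 had log2 changes below 0, with a median of -0.22, against 33.9% of all rows below 0. By limma 1 of the 11 was called, against 24.9% of all rows. Hspa5, which encodes BiP, the Hsp70 of the ER that holds unfolded chains and keeps the stress sensors inactive, had 147 and 151 FPKM in Cdk8Tg, against 277 and 197 FPKM in WT. The groups did not overlap, and the 2 WT libraries lay further apart than the Cdk8Tg pair. The mean was 149 ± 3.02 FPKM in Cdk8Tg and 237 ± 55.9 FPKM in WT (SD, n = 2 per group). Hspa5 fell by 0.64 ± 0.17 on the log2 scale (SE; limma, Benjamini-Hochberg adjusted p = 0.043). Besides the loss with an equal FPKM sum, the call was lost without a variance trend (limma adjusted p = 0.055) and without a filter on low values (limma adjusted p = 0.11). It was also lost without Cdk8Tg replicate 1, Cdk8Tg replicate 2 or WT replicate 1, at log2 changes of -0.62, -0.66 and -0.40. Hspa5 lies on chromosome 2 at 34771970 to 34777547 (GRCm38, GENCODE M21, plus strand). Its promoter, from 250 bases before to 50 after the start (RefSeq, GRCm38.p6, chr2:34771840-34772139, plus strand), is shown because the gene carries the classical ER stress response element, in capitals here.

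Hspa5 promoter: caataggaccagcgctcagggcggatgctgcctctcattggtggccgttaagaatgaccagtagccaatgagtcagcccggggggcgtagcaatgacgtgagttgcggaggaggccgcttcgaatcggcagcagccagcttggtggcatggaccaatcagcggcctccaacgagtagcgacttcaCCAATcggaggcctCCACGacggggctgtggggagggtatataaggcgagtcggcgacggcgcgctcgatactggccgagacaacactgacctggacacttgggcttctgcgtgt

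The other chaperones of high abundance had smaller differences. Calr, the calcium-binding lectin chaperone calreticulin, stood at 124 and 150 FPKM in Cdk8Tg, against 208 and 162 FPKM in WT, and its log2 change of -0.43 ± 0.15 missed the threshold (limma, Benjamini-Hochberg adjusted p = 0.096). Canx, its membrane-bound counterpart calnexin, had 69.5 and 76.0 FPKM in Cdk8Tg and 85.6 and 83.7 FPKM in WT, with a log2 change of -0.22 and an adjusted p of 0.11 by limma. Neither pair of groups overlapped, and both genes were called after median-of-ratios scaling (limma adjusted p = 0.047 for Calr and 0.033 for Canx). Hsp90b1, the Hsp90 of the ER known as GRP94, overlapped between the groups, with 110 and 140 FPKM in Cdk8Tg and 161 and 135 FPKM in WT.

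Manf, a secreted protective factor induced by ER stress, stood at 8.04 and 8.96 FPKM in Cdk8Tg, against 17.1 and 10.4 FPKM in WT. WT replicate 1 was the high library, at 1.65 times the level of WT replicate 2. The log2 change of Manf was -0.60 ± 0.22 (95% interval -1.15 to -0.04) and was not called (limma, Benjamini-Hochberg adjusted p = 0.10). With WT replicate 1 alone for WT it was -0.93 (limma adjusted p = 0.046), and with WT replicate 2 alone it was -0.26 (limma adjusted p = 0.25), so WT replicate 1 decided its size. An exon of Manf overlaps Rbm15b on the same strand, which makes its value less certain. Sdf2l1, a small cofactor of BiP, followed the same order of libraries, with 2.49 and 2.66 FPKM in Cdk8Tg and 4.78 and 3 FPKM in WT. At the estimated depth Sdf2l1 rested on about 33.7 fragments in its lowest library, a counting SD of 17.2%, while each of the other 29 genes had at least 149 fragments.

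Chaperones of the J-domain family, which drive the ATPase of BiP, differed little. Dnajc3, also a brake on the kinase PERK, had 11.7 and 14.5 FPKM in Cdk8Tg and 15.5 and 15.2 FPKM in WT, without overlap (log2 change -0.22). Dnajb9 and Dnajb11 overlapped between the groups, at log2 changes of -0.12 and 0.11. So did Hyou1, the exchange factor that reloads BiP with ATP, at -0.07 with a 95% interval of -0.42 to 0.27. Creld2, a small ER stress protein, was at 10.1 and 10.2 FPKM in Cdk8Tg and 9.55 and 7.92 FPKM in WT, with a log2 change of 0.20 in the other direction and no call.

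None of the 5 disulfide enzymes was called by limma, against 24.9% of all rows. None had an unadjusted p under 0.05, against 41.6% of all rows. These enzymes form and rearrange the bonds that lock secreted proteins into shape. P4hb, the classical protein disulfide isomerase and also a subunit of the collagen prolyl hydroxylase, stood at 124 and 147 FPKM in Cdk8Tg, against 118 and 113 FPKM in WT. Ero1l, the oxidase that recharges it, had 7.14 and 7.84 FPKM in Cdk8Tg and 6.56 and 6.28 FPKM in WT. Neither overlapped, with log2 changes of 0.22 and 0.19. Pdia6, which also acts on the sensor IRE1, lay in the other direction without overlap, at 37.5 and 46.0 FPKM in Cdk8Tg and 56.0 and 48.1 FPKM in WT (log2 change -0.31). Pdia3, the partner of calnexin and calreticulin, and Pdia4 overlapped, and the log2 change of Pdia3 was 0.00 with a 95% interval of -0.31 to 0.31. After median-of-ratios scaling the signs of Pdia3 and Pdia4 were both negative, at -0.14 and -0.08.

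The sensors and their factor had no call by limma, against 24.9% of all rows, and 2 of the 3 had an unadjusted p under 0.05, against 41.6%. Ern1, the kinase and endonuclease that splices Xbp1 mRNA, had 3.37 and 3.48 FPKM in Cdk8Tg and 2.45 and 2.74 FPKM in WT. Its log2 change was 0.30 ± 0.11 (limma, Benjamini-Hochberg adjusted p = 0.099), and 0.19 after median-of-ratios scaling. Atf6, whose cleaved form enters the nucleus as a transcription factor, had 22.0 and 22.7 FPKM in Cdk8Tg and 16.6 and 20 FPKM in WT. The log2 change of Atf6 was 0.28 ± 0.11 (limma, Benjamini-Hochberg adjusted p = 0.11), and 0.14 after median-of-ratios scaling. Both sensors were higher in each Cdk8Tg library than in either WT library, as were 5851 of all 11888 tested rows. Xbp1, the factor made from the spliced mRNA, overlapped at 19.1 and 24.6 FPKM in Cdk8Tg and 30.1 and 22.5 FPKM in WT, and the 95% interval of its log2 change ran from -0.70 to 0.19. FPKM per gene do not separate spliced from unspliced Xbp1 mRNA and do not show the cleavage of ATF6 protein.

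The degradation genes held the largest fall and the only called rise among the 30. Herpud1 encodes a membrane protein that gathers the ubiquitin ligase complex for ER-associated degradation, and it is a strong target of the unfolded protein response in mammalian cells. It had 57.0 and 62.9 FPKM in Cdk8Tg, against 121 and 185 FPKM in WT. Both Cdk8Tg libraries lay below the lower WT library, and the WT libraries differed from each other by 1.53 times. Means were 59.9 ± 4.18 FPKM in Cdk8Tg and 153 ± 45.3 FPKM in WT (SD, n = 2 per group), so that the WT mean was 2.56 times that of Cdk8Tg. Herpud1 fell by 1.31 ± 0.20 on the log2 scale (SE; limma, Benjamini-Hochberg adjusted p = 0.014), and 1.03% of tested rows had a lower value. It kept its call when any of the 4 libraries was left out, at -1.62 to -1.01 with adjusted p of 0.017 to 0.043. In the authors' deposited table it was at 68.1 FPKM in Cdk8Tg and 195 FPKM in WT with a q-value of 0.00086.

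Herpud1 lies on chromosome 8 at 94386438 to 94395377 (GRCm38, plus strand). None of its 31-base stretches occurs in another annotated gene, and no other gene overlaps its exons. Its promoter (RefSeq, GRCm38.p6, chr8:94386179-94386478, plus strand) is shown because its level moved most. Capitals mark an ER stress response element of the second kind, element II.

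Herpud1 promoter: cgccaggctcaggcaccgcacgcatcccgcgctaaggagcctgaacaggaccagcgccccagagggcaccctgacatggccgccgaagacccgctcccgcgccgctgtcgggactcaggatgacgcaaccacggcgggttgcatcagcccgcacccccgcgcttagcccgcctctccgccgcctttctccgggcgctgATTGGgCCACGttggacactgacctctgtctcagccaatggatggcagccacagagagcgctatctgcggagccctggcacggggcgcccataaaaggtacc

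Os9, the lectin that recognises trimmed glycans on misfolded proteins, had 16.3 and 15.8 FPKM in Cdk8Tg, against 11.3 and 12.2 FPKM in WT. The pairs were tight and did not overlap. Os9 rose by 0.42 ± 0.09 on the log2 scale (SE; limma, Benjamini-Hochberg adjusted p = 0.025). The call of Os9 was lost after median-of-ratios scaling (log2 change 0.28, adjusted p = 0.081) and without any 1 library (0.37 to 0.47, adjusted p = 0.065 to 0.12). Os9 lies on chromosome 10 at 127095650 to 127121131 (GRCm38, minus strand).

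None of the 5 remaining degradation genes was called by limma, against 24.9% of all rows. An unadjusted p under 0.05 was reached by 1 of them (Derl1), against 41.6% of all rows. Sel1l, the scaffold that joins Os9 to the ligase, had 14.2 and 15.1 FPKM in Cdk8Tg and 14.3 and 13.2 FPKM in WT, which overlap. Syvn1, the ubiquitin ligase HRD1 itself, had 7.93 and 7.90 FPKM in Cdk8Tg and 6.69 and 6.84 FPKM in WT, with a log2 change of 0.20 (limma, Benjamini-Hochberg adjusted p = 0.14). Derl1, a channel-forming protein of the complex, stood at 30.2 and 30.1 FPKM in Cdk8Tg, against 26.1 and 24.9 FPKM in WT (log2 change 0.23, limma adjusted p = 0.081). Its relative Derl2 was at -0.05, and Edem1, which trims mannose from substrates, was at -0.15. The log2 interval of Sel1l, from -0.14 to 0.31, leaves room for small differences in either direction.

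All 4 translocon genes had log2 changes above 0 on the deposited scale, as did 66.1% of all rows. None was called by limma, against 24.9% of all rows, and 1 had an unadjusted p under 0.05, against 41.6%. The translocon is the channel through which new chains enter the ER. Sec61a1, its pore, had 23.2 and 24.3 FPKM in Cdk8Tg and 20.8 and 18.2 FPKM in WT, a log2 change of 0.28 (limma, Benjamini-Hochberg adjusted p = 0.091). Sec61b, a small subunit, was at 24.7 and 27.5 FPKM in Cdk8Tg and 23.2 and 20.2 FPKM in WT. Of the 31-base stretches of Sec61b, 23.5% also occur in other annotated genes, so its value is uncertain. The TRAP subunits Ssr1 and Ssr2, which assist translocation, were at 0.10 and 0.08, and after median-of-ratios scaling both were below 0, at -0.03 and -0.07.

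**Figure D2:**
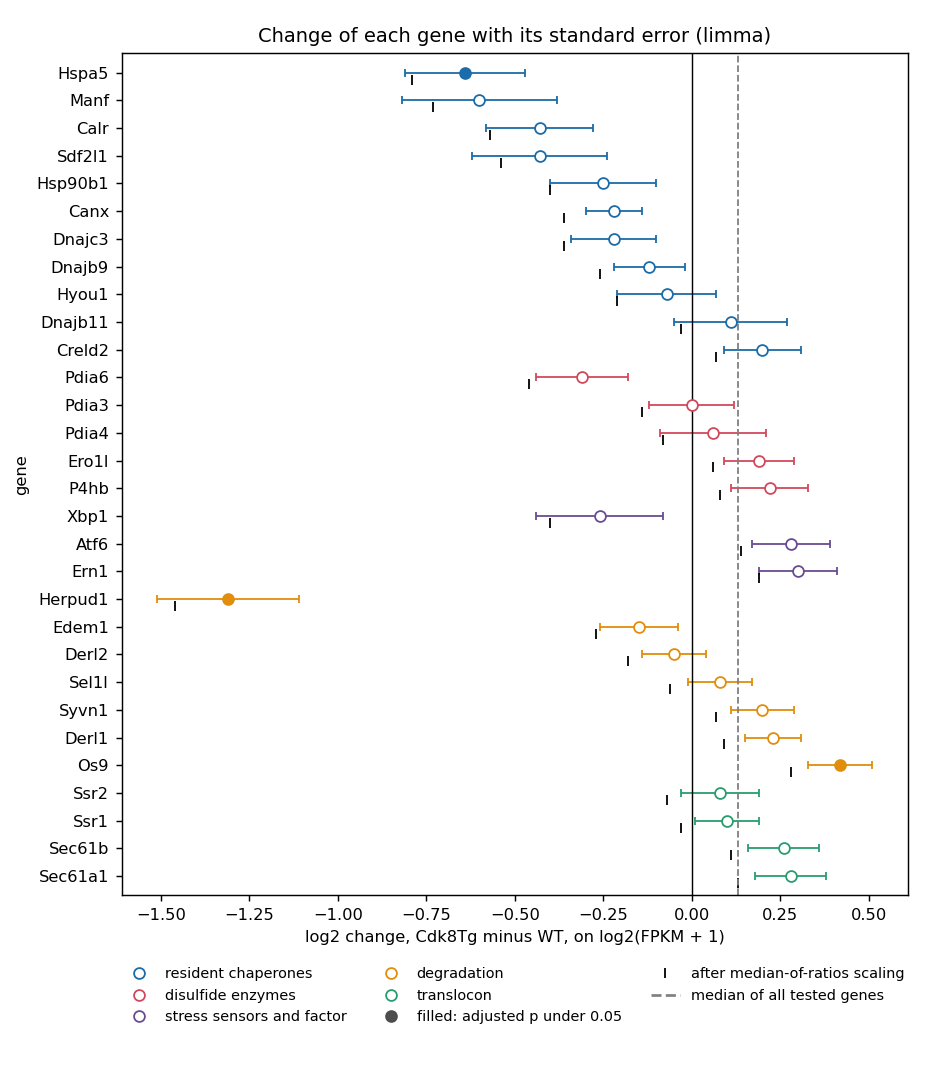
Log2 change, Cdk8Tg minus WT, of each of the 30 genes on the log2(FPKM + 1) scale with its SE from limma, coloured by role and filled where the adjusted p was under 0.05. Black ticks give the value after median-of-ratios scaling and the dashed line the median of all tested genes (0.13). Herpud1 at -1.31 stands apart, chaperones lie mostly left of 0, and the translocon genes lie to its right as deposited.

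Libraries of the same genotype differed in the chaperones and disulfide enzymes as a group. All 16 resident chaperones and disulfide enzymes were higher in Cdk8Tg replicate 2 than in Cdk8Tg replicate 1, against 54.8% of all tested rows, and 5 of them by more than 1.2 times, against 16%. Of the same 16 genes, 15 were higher in WT replicate 1 than in WT replicate 2, against 54.4% of all rows. By more than 1.2 times 8 of the 16 were higher there, against 12.8% of all rows. Of all 30 genes, 26 were higher in Cdk8Tg replicate 2 and 22 in WT replicate 1, against the same 54.8% and 54.4%. Herpud1 went the other way between the WT libraries and was lower in WT replicate 1. The part of this spread within genotypes in the values above was not tested. The 30 genes together summed to 1057 and 1209 FPKM in Cdk8Tg, against 1443 and 1299 FPKM in WT. As a share of all FPKM this was 0.236% and 0.275% in Cdk8Tg, and 0.283% and 0.256% in WT, where the groups overlap.

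**Figure D3:**
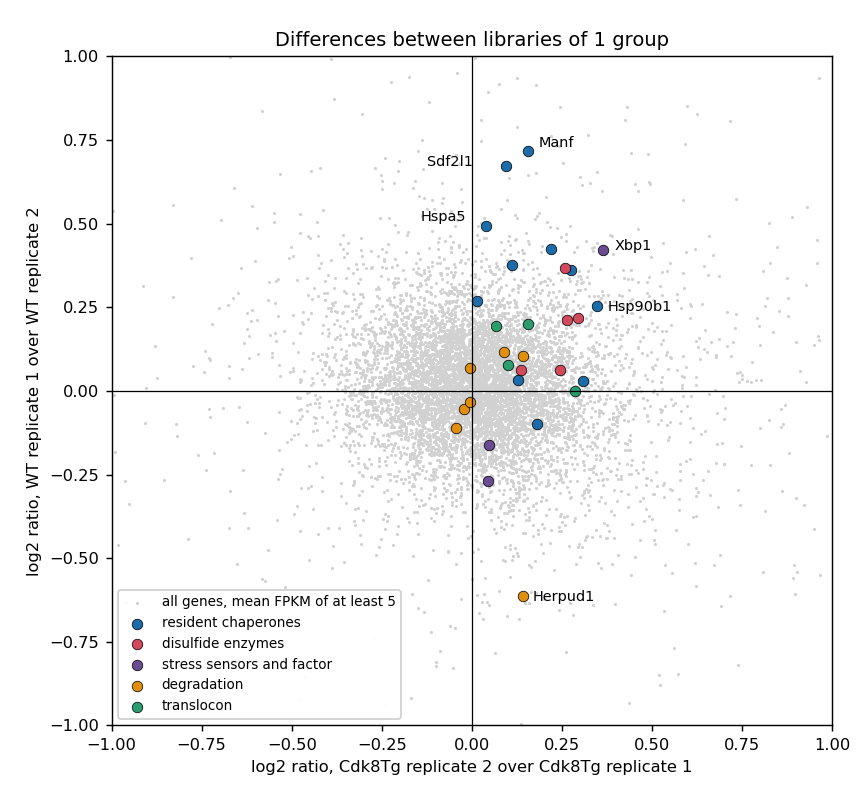
Log2 ratio of Cdk8Tg replicate 2 over replicate 1 (horizontal axis) against that of WT replicate 1 over replicate 2 (vertical axis), for the 30 genes coloured by role and, in grey, for genes with a mean of at least 5 FPKM that lie within the axes. Nearly all chaperones and disulfide enzymes fall in the upper right, and Herpud1 lies low on the vertical axis.

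The promoters of some of these genes hold short elements known to bind ATF6 and XBP1. The ER stress response element was searched as CCAAT and CCACG with 9 bases of any kind between, element II as ATTGG and CCACG with 1 base between, and the core of the unfolded protein response element as TGACGTGG, all on both strands. The last shares its bases CGTGG with the reverse of CCACG, so matches may overlap. Promoters of 300 bases were given for 24 of the 30 genes, Ero1l under its current symbol, and not for Hyou1, Manf, Atf6, Derl1, Sec61a1 and Ssr2. The first element was found in 8 of the 24 genes, against 0.119% of 32851 promoters of the same length. Element II was found in 2, against 0.0365%, and the core in 0 of 24, against 0.676%. Such elements are part of why these genes are known as a family, so their number here describes the choice of genes. The remaining matches are printed as they stand on the promoter strand, where a match on the other strand begins with CGTGG. Positions count from the first base of the RefSeq transcript, which is not the GENCODE gene start for every gene. It lies downstream of that start for Hspa5, Hsp90b1 and Pdia6, for example, and upstream of it for Dnajc3. The 2 matched parts are in capitals.

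Hsp90b1, -212 to -194: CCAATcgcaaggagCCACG
Hsp90b1, -107 to -89: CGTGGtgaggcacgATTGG
Calr, -162 to -144: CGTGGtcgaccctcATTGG
Canx, -145 to -127: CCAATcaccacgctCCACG
Dnajc3, -105 to -87: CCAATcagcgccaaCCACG
Creld2, -126 to -108: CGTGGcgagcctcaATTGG
Pdia6, -98 to -80: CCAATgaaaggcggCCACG
Syvn1, -44 to -26: CCAATcggcggtagCCACG
Dnajb11, 8 to 18: ATTGGcCCACG

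The match in Hspa5 lies at -65 to -47 and that in Herpud1 at -52 to -42. Genes with a match were not uniform in their response. The 10 genes with either element ranged from -1.31 (Herpud1) to 0.20 on the log2 scale with a median of -0.23, 7 of them below 0. The 14 genes with a promoter but no match ranged from -0.43 to 0.42 with a median of 0.07, 5 of them below 0. Creld2 and Syvn1, both with the first element, were at 0.20 each, and Dnajb11, the other gene with element II, was at 0.11. Outside the 30 genes, 13 tested genes carry either element, with 0 called higher and 2 called lower by limma, against 16.9% and 7.98% of all rows. Of these 13, 5 had an unadjusted p under 0.05, against 41.6% of all rows, and their median was 0.14. The 2 were Acacb, a carboxylase of fatty acid metabolism, and Krtcap2, a subunit of the glycosylation enzyme, at -0.74 and -0.49, and both were named after their values were seen.

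The authors' deposited table, made with Cuffdiff, gave 4 of the 30 genes as significant, all lower. Of the 12393 genes it tested, 14.0% were significant in either direction, 1045 genes lower and 685 higher. They were Hspa5, Calr, Herpud1 and Manf. In the authors' deposited table Calr was at 155 FPKM in Cdk8Tg and 235 FPKM in WT (q-value 0.014), and Manf at 9.67 FPKM in Cdk8Tg and 17.4 FPKM in WT (q-value 0.0016). Os9 was at 18.3 FPKM in Cdk8Tg and 14.9 FPKM in WT in the authors' deposited table, and not significant (q-value 0.34). Its log2 ratios differed from those of the per-library values by a median of -0.16 over 11687 genes.

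Around these 30 genes, 147 further genes of the ER were read in 6 lists, of which 142 were tested. Of them 33 rose and 6 fell by limma, or 27.5%, against 24.9% of all rows, with a median log2 change of 0.16, against 0.13. After median-of-ratios scaling 14 were higher and 8 lower, or 15.5%, against 19.6% of all rows, so that the share lay above that of all rows on 1 scale and below it on the other. On that scale 20 of the 39 called genes kept their call. The call was kept by 30 of the 39 without Cdk8Tg replicate 1 and by 10 without Cdk8Tg replicate 2. It was kept by 8 without WT replicate 1 and by 3 without WT replicate 2. Chac1, Gpx8 and Tmx1 did so in all 4 cases.

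Stress sensors, proteases and factors outside the 30 held the largest change. Of 16 tested, 6 rose and 1 fell by limma, or 43.8%, against 24.9% of all rows, with a median of 0.29. Chac1, which degrades glutathione and is a target of the PERK branch through ATF4, had 0.645 and 0.722 FPKM in Cdk8Tg, against 5.69 and 8.58 FPKM in WT. Every Cdk8Tg value was far below either WT value. Chac1 fell by 2.25 ± 0.19 on the log2 scale (SE; limma, Benjamini-Hochberg adjusted p = 0.0042). Ddit3, the transcription factor CHOP of the same branch, lay the other way, with 27.8 and 33.0 FPKM in Cdk8Tg and 20.1 and 19.4 FPKM in WT, and rose by 0.59 ± 0.11 (limma adjusted p = 0.018). Creb3l2 and Atf6b, membrane-bound factors cleaved like ATF6, rose by 0.73 and 0.50. Atf4 and Eif2ak3 were not called, at 0.26 and 0.17.

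**Figure D4:**
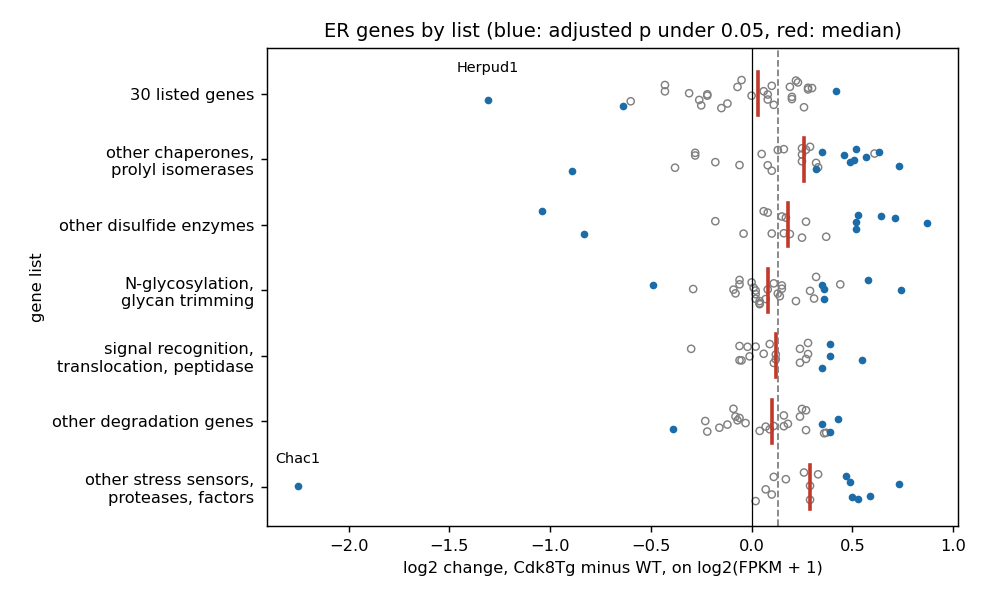
Log2 change, Cdk8Tg minus WT, of each tested gene in the set of 30 and in 6 further lists of ER genes, with called genes in blue, uncalled genes as open circles, list medians as red bars and the median of all tested genes (0.13) as a dashed line. Chac1 at -2.25 and Herpud1 at -1.31 lie furthest to the left.

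Among 28 other chaperones and prolyl isomerases of the ER, 9 rose and 1 fell by limma, with a median of 0.26. Called were 35.7% of the list, against 24.9% of all rows. The fall was Cdnf, the paralog of Manf, at 5.28 and 4.56 FPKM in Cdk8Tg, against 10.3 and 9.64 FPKM in WT (log2 change -0.89, limma Benjamini-Hochberg adjusted p = 0.0076). Serpinh1, the collagen chaperone HSP47, rose to 268 and 304 FPKM in Cdk8Tg, against 201 and 183 FPKM in WT, a log2 change of 0.57. Sdf4, a calcium-binding protein of the secretory route, and the prolyl isomerase gene Ppic rose by 0.52 and 0.49. The fibroblast genes Col1a1 and Col1a2, which make the main client of Serpinh1, rose by 0.87 and 0.82. That the fibroblast markers given above moved with these genes was measured, and their part in the list was not tested. After median-of-ratios scaling the list had 4 higher and 2 lower, against 7.96% and 11.7% of all rows.

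Of 20 other disulfide enzymes, 6 rose and 2 fell by limma, or 40.0%, against 24.9% of all rows, with a median of 0.18. Gpx8, a peroxidase of the ER membrane, had 39.5 and 42.5 FPKM in Cdk8Tg, against 21.5 and 22.4 FPKM in WT, and rose by 0.87 ± 0.08 (SE; limma, Benjamini-Hochberg adjusted p = 0.0053). Its relative Gpx7 rose by 0.71. Tmx1, a membrane-bound thioredoxin of the ER, stood at 24.5 and 27.0 FPKM in Cdk8Tg, against 61.0 and 47.5 FPKM in WT, a fall of more than the spread within either group (log2 change -1.04, limma adjusted p = 0.010). Qsox2, a sulfhydryl oxidase, changed by -0.83.

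The remaining 3 lists had smaller shares of called genes than the whole table, in the order below 19.4%, 19.0% and 15.4%, against 24.9%. In N-glycosylation and glycan trimming 5 of 31 rose and 1 fell, with a median of 0.08. Mlec, a lectin that binds early glycans, rose by 0.74, Alg14 by 0.58 and Dad1 by 0.35, and Krtcap2 changed by -0.49. In signal recognition, translocation and signal peptidase 4 of 21 rose and 0 fell by limma (8 and 1 at an unadjusted p under 0.05), with a median of 0.12. These were Sec62 and Sec63, which assist the translocon, by 0.55 and 0.39, and the signal peptidase subunits Spcs1 and Spcs3, by 0.35 and 0.39. Of 26 other degradation genes, 3 rose and 1 fell, with a median of 0.10. They were Edem2, Ubxn4 and Ngly1, which removes glycans from retrotranslocated proteins, at 0.43, 0.39 and 0.35, and Svip, an inhibitor of ER-associated degradation, at -0.39.

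After median-of-ratios scaling the disulfide list had 4 higher and 2 lower, the glycosylation list 2 and 1, the translocation list 1 and 1, the degradation list 0 and 1, and the sensor list 3 and 1 (limma). Of all rows 7.96% were called higher and 11.7% lower on that scale. The medians of the glycosylation, translocation and degradation lists were then below 0, at -0.06, -0.02 and -0.04.

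Markers of other cell types did not all move together. Of 7 tested macrophage markers 3 were called lower by limma, against 7.98% of all rows. Macrophage sums were 140 and 178 FPKM in Cdk8Tg and 224 and 217 FPKM in WT. None of 7 endothelial and 6 smooth muscle or pericyte markers was called by limma, against 24.9% of all rows. An unadjusted p under 0.05 was reached by 0 and 1 of them, against 41.6% of all rows. Markers of plasma cells, which are rich in ER, and of B cells summed to 6.71 and 6.61 FPKM in Cdk8Tg, against 5.52 and 3.67 FPKM in WT. Sdc1 made up most of each sum, with 3.77 and 5.19 FPKM in Cdk8Tg and 3.1 and 2.66 FPKM in WT, and it alone of these markers reached the mean of 1 FPKM for the test. Atrial markers summed to 861 and 2416 FPKM in Cdk8Tg, against 670 and 225 FPKM in WT, and Bmp10 among them was listed at 0 in every library. Nppa made up most of each sum, with 780 and 2072 FPKM in Cdk8Tg and 395 and 199 FPKM in WT, and it alone was called. Myl4, Myl7 and Sln overlapped between the groups and differed in direction, at log2 changes of 2.05, -0.88 and -1.69. Within the groups each was higher in Cdk8Tg replicate 2 and in WT replicate 1. Myl7 had 8.51 and 52.7 FPKM in Cdk8Tg and 136 and 11.6 FPKM in WT. Sln had 0.218 and 9.93 FPKM in Cdk8Tg and 43.8 and 2.08 FPKM in WT. Most chaperones and disulfide enzymes were higher in the same libraries, and a link was not tested. Adipocyte markers summed to 0.416 and 11.3 FPKM in Cdk8Tg and to 2.52 and 0.0619 FPKM in WT. The part of cell makeup in the values of the 30 genes was not tested.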

How the data were processed

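RNA from 4 ventricle samples was analysed, grouped by sample title. Alignment was with TopHat (1.0.0) to mm10, then Cufflinks and Cuffdiff were used, per the submitters' processing notes. Their versions, the annotation and how strand was set are not stated there. The authors deposited FPKM per library and, per the file headers, a Cuffdiff table with FPKM per group, p-values and q-values. FPKM are not counts, so limma 3.58.1 (R 4.3.3) was run on log2(FPKM + 1) over all 4 libraries with a trended variance, 2 residual degrees of freedom and no covariates, keeping rows whose mean reached 1 FPKM. Such fold changes understate those of low genes. Since separate animals are not stated, the p-values cover only spread among these 4 samples, possibly technical, and an exact permutation of 2 against 2 cannot go below 0.333 (two-sided). The fit was tested on simulated data, where it missed most true changes of 0.5 on the log2 scale. Far fewer genes were changed there than were called here, so that rate of misses does not carry over to these data. The 30 genes and all lists were chosen with earlier results of these data known. Values per library are given for the called genes among the 30, the sensors with Xbp1, and others where needed. From each further list up to 4 called genes by smallest p are named, some by log2 change alone. Alternatives were pseudocounts of 0.1 and 5, a minimum of 5 FPKM or none, 3 scalings, 2 variance models, a replicate block, each library left out in turn, and the authors' calls. Depth came from FPKM steps under 0.1 in genes with 1 transcript of over 800 bases (GENCODE M21).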

Additional observations from a re-analysis of the deposited data

How the results depend on the processing

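Of the 30 genes, 1 was called higher and 2 lower. Without a filter on low values these counts were 0 and 0 by limma (4 higher and 3 lower at an unadjusted p under 0.05), and Herpud1, Hspa5 and Os9 had adjusted p of 0.058, 0.11 and 0.054. Median-of-ratios scaling gave 0 and 4, quantile normalization 0 and 2 (2 higher at an unadjusted p under 0.05), and an equal FPKM sum 10 and 1. Without a variance trend 1 was higher and 1 lower, and Hspa5 lost its call (limma adjusted p = 0.055). The authors' Cuffdiff calls were 0 and 4. Leaving out 1 library gave 0 higher in each case (1 to 4 at an unadjusted p under 0.05) and 1 to 3 lower. Over all tested genes, 2009 were higher and 949 lower. These counts were 641 and 414 without a filter, and 1805 and 853 without a variance trend. They were 946 and 1385 with median-of-ratios scaling, 992 and 1039 with quantile normalization, 4899 and 653 with an equal FPKM sum, and 685 and 1045 by the authors' calls, so that lower calls outnumbered higher ones under 3 of these 4. Leaving out 1 library gave 162 to 1686 higher and 157 to 901 lower. When 1 library is left out, 1 residual degree of freedom remains, and its group is read from a lone sample, whose spread is taken from the other group. With the replicate number as a block, 1855 genes were higher and 970 lower, and of the 30 genes 1 was higher and 2 were lower. The numbers do not pair the samples by any label, and the deviations of same-numbered libraries correlated at -0.026 over 11888 genes. No call of a member reversed its direction under any alternative run. With 2 libraries a group the 95% interval of Pdia3, at a log2 change of 0.00, still ran from -0.31 to 0.31. The cause of the differences between settings was not tested.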
